A study of Mus musculus with 27 samples.

Results

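The comparison described here set the first days of an osteoblast culture, days 2, 4 and 6 (early), against days 8, 10 and 12 (middle). Its members were chosen by day alone and hold 18 of the 27 profiles deposited, which make 6 of 9 summed days. The study followed calvarial cells of neonatal mice, 5 to 9 days old, on the strain C57BL/6J-Col3.6 CFP, in which cyan fluorescent protein is driven by a fragment of the collagen type I promoter. The cells had been grown for 4 days and sorted for the fluorescent protein before differentiation began, and all 6 days share that strain, the sort and a medium with ascorbic acid, beta-glycerol phosphate and fetal bovine serum. Days 14, 16 and 18 (late) of the same series were used only to see where the changes went afterwards. The sorted population is limited to cells that used the Col3.6 promoter in culture, and the number of animals pooled is not given in the sources used here. The study describes the profiles of a day as replicate samples and the labels number them so, but the 3 profiles of a day carry 1 barcode and differ in sequencing lane. Over the genes with whole-number counts they differed by no more than sampling noise (chi-square per degree of freedom 1.00 to 1.02, p from 0.0513 to 0.485 over days 2 to 12), and over all genes, including those whose counts RSEM estimated as fractions, the same ratio was 1.21 to 1.39. They were therefore summed and counted as 1 sample, and whether they came from separate cultures is not known here.

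The summed days held 42280444 to 43146793 estimated counts in the early window and 22470195 to 62009157 in the middle window. Between 12323 and 12961 genes reached 1 TPM (a relative transcript abundance, corrected for transcript length) on an early day and 13101 to 13426 on a middle day. Counts from the mitochondrial genome made up 22.9% to 23.8% of an early library and 24.7% to 27.7% of a middle library. Each window thus holds 3 consecutive days with 1 sample at each, so the spread within a window is change with time as well as error. All levels below are TPM scaled to a common upper quartile, and all fold changes are log2 changes of the counts, middle minus early, with their standard error (SE) and with P adjusted over all genes tested by edgeR's quasi-likelihood test.

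Calvarial osteoblasts in culture are known to pass through a phase of division, then to lay down a matrix rich in type I collagen and small proteoglycans, and last to mineralize it. Cells freshly plated on plastic commonly carry a contractile cytoskeleton of smooth muscle actin and related proteins, which is also the mark of myofibroblasts. Runx2 and Sp7 are the transcription factors of the lineage, Alpl is the phosphatase that frees phosphate for mineral, and Ibsp, Bglap and Dmp1 are proteins of the mineralized matrix.

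Of 14865 genes tested, 1748 (11.8%) were higher and 1358 (9.14%) lower in the middle days at adjusted P under 0.05. The counts of every list below are to be read beside these shares. All 3 middle days lay above all 3 early days for 3265 genes (22.0%) and below them for 3104 (20.9%). The genes called higher changed by a median of 1.25 on the log2 scale, and 1054 of them by more than 2-fold. The genes called lower had a median of -0.77, with 427 changed by more than 2-fold, whereas the median over all genes tested was 0.03. The days lay in their order of culture along the leading principal component, which held 70.3% of the variance, from -87.0 on day 2 through -25.1 on day 6 and 18.3 on day 8 to 82.8 on day 12. Of the genes called higher, 47.8% rose at every step from day 2 to day 12, and of those called lower 17.2% fell at every step. Among all genes tested 8.17% rose and 2.63% fell at every step. The largest single step was that from day 6 to day 8 for 29.1% of the genes called higher and 50.4% of those called lower, and that from day 8 to day 10 for 34.7% of each. For all genes tested, with steps taken in either direction, the shares were 19.5% and 28.3%, so that the share from day 8 to day 10 was not far above that of all genes. These shares are a description, since the genes were called for a difference across the boundary between days 6 and 8. No gene was called when day 2, 4, 10 or 12 was left out, with lowest adjusted P of 0.0699, 0.116, 0.125 and 0.0995 and with 4103 to 4746 genes at unadjusted P under 0.05. All calls were thus lost without any 1 of these 4 days, though each such fit also had fewer samples. An exact permutation test of 3 days against 3 cannot give a P below 0.1 for any single gene.

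Among called genes with a mean of at least 10 TPM over the 6 days and no overlap between the windows, the largest rise was that of Sfrp2, which encodes a secreted antagonist of Wnt signaling (chromosome 3, 83570243 to 83578238, plus strand, NCBIM37). Its level was 20.1, 24.5 and 49.3 TPM on days 2, 4 and 6 and 297, 2120 and 3838 TPM on days 8, 10 and 12. The middle mean was 66.6 times the early mean (log2 change 6.03, SE 0.96, adjusted P = 0.0281). Egfl6, a secreted protein with epidermal growth factor repeats (chromosome X, 162960939 to 163023652, minus strand), rose from 6.23, 9.91 and 34.3 TPM to 152, 779 and 1150 TPM (log2 change 5.36, SE 0.96). The others among the 10 largest rises were lower in level. They were C3 (the central complement component), Fxyd1 (a regulator of the sodium pump), Matn4 (a matrix adaptor protein), Pgm5 (a protein of adhesion sites), Lect1 (chondromodulin), Adh1 (alcohol dehydrogenase), Scara5 (a scavenger receptor) and E030010A14Rik, which lies beside Pgm5 on the opposite strand. Each of these 8 stood at no more than 2.62 TPM on every early day, and their log2 changes lay between 5.33 and 5.87. For C3 the middle mean in TPM was 18.6 times the early mean, less than its log2 change of the counts (5.56) would give.

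By the same rule the largest fall was that of Ppbp, a neutrophil-attracting chemokine (chromosome 5, 91197544 to 91199086, plus strand), from 40.1, 79.3 and 24.3 TPM to 4.87, 0.58 and 0.10 TPM (log2 change -4.74, SE 1.11, adjusted P = 0.0335). Ptgs2, the inducible cyclooxygenase, fell from 362, 240 and 90.8 TPM to 35.6, 3.74 and 3.50 TPM (log2 change -4.03, SE 1.09). Others of the 10 were Coch (a secreted matrix protein), Sfn (a 14-3-3 protein), Inhbb (a subunit of inhibin and activin), Hbegf (a ligand of the epidermal growth factor receptor), Fosl1 (a subunit of the AP-1 transcription factor), Ankrd1 (a target of mechanical and YAP signaling) and the processed transcript Gm20419, with log2 changes between -4.06 and -3.11.

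**Figure D1:**
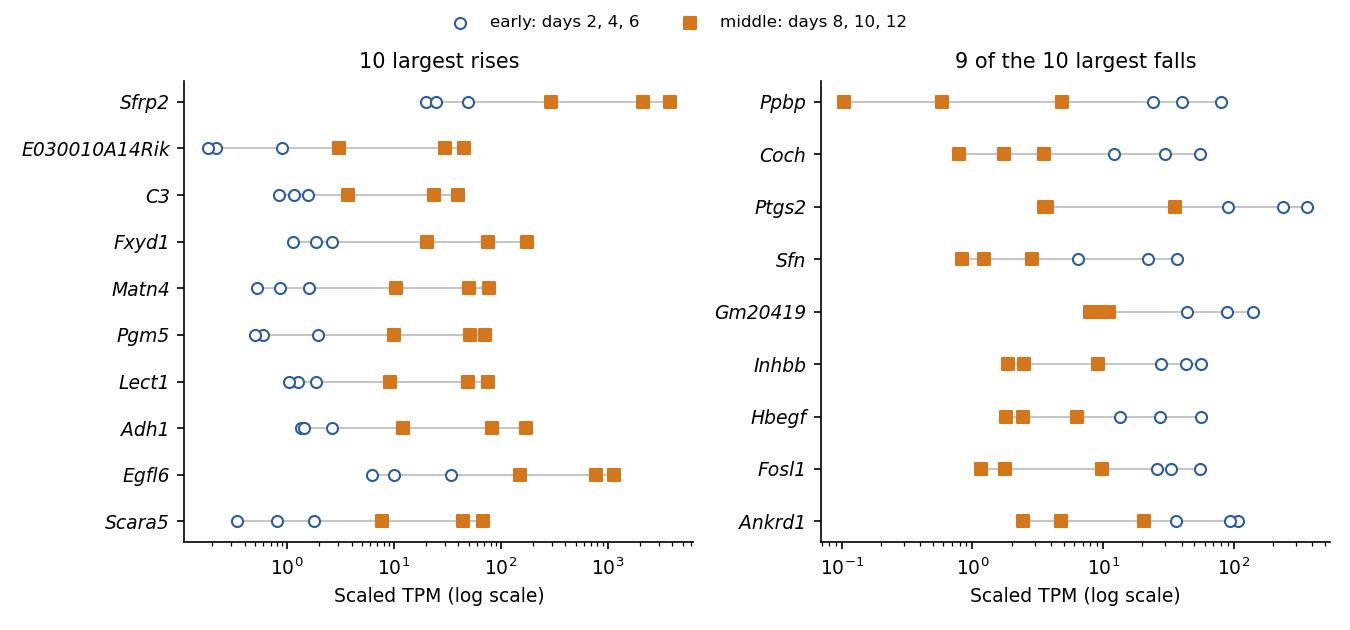
Level of each of the 10 genes with the largest rise and 9 of the 10 with the largest fall, as scaled TPM on a log axis, with 1 point for each summed day (open circles for days 2, 4 and 6, filled squares for days 8, 10 and 12). In every gene shown the 3 middle days lie on 1 side of the 3 early days, as with Sfrp2 at 20.1 to 49.3 TPM early and 297 to 3838 TPM in the middle days.

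Many genes of the extracellular matrix rose. Among the fibrillar collagens 7 of 11 rose and 0 fell, with a list median of 1.26. Col1a2, the alpha-2 chain of type I collagen, was 983, 1499 and 1850 TPM in the early days and 2445, 3076 and 3845 TPM in the middle days (log2 change 1.11, SE 0.26, adjusted P = 0.0331). Col1a1, the alpha-1 chain, rose less and sat at the edge of the threshold, from 1526, 2237 and 2368 TPM to 2940, 3256 and 4174 TPM (log2 change 0.74, SE 0.21, adjusted P = 0.0497). Both type I chains thus increased at each step of 2 days. Col3a1, the type III chain, went from 160, 555 and 716 TPM to 929, 1118 and 1381 TPM but was not called (log2 change 1.26, SE 0.47, adjusted P = 0.0944). The minor chains Col11a1 (log2 change 1.75), Col5a3 (2.77), Col27a1 (2.17), Col24a1 (1.78) and Col11a2 (2.74) rose, and of these Col11a1 was the most abundant, with 482.8 TPM on day 12. The main type V chains, Col5a1 and Col5a2, had log2 changes of -0.08 and 0.05 and were not called.

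The small leucine-rich proteoglycans, which bind collagen fibrils and set their diameter and spacing, had a list median of 2.43, with 9 of 13 members tested called higher and 0 lower. Decorin (Dcn) rose from 45.5, 134 and 299 TPM to 565, 1467 and 2142 TPM, a middle mean 8.73 times the early one (log2 change 3.12, SE 0.73, adjusted P = 0.0335). Osteoglycin (Ogn) went from 48.1, 62.3 and 106 TPM to 326, 838 and 1225 TPM (log2 change 3.45, SE 0.51, adjusted P = 0.0281). Fmod, Prelp, Aspn, Podn, Ecm2, Omd and Kera rose as well, with log2 changes from 1.65 for Fmod to 5.67 for Kera, which stayed under 6 TPM. Biglycan (Bgn) was the most abundant member on every early day, at 1946, 2124 and 2425 TPM, and had a small log2 change of 0.32 (SE 0.14, adjusted P = 0.131). Lumican (Lum) went from 25.8, 141 and 309 TPM to 509, 923 and 1128 TPM without being called (adjusted P = 0.0627). All 3 middle days lay above the early days in 12 of the 13 members tested, set against 22.0% of all genes tested.

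Elastic fiber and matricellular genes moved both ways, with 7 of 25 higher and 6 lower. The rises were those of Postn (periostin), from 83.1, 143 and 347 TPM to 1122, 1828 and 2090 TPM (log2 change 3.17, SE 0.52), Nov (a CCN family protein), from 11.7, 12.7 and 27.9 TPM to 105, 382 and 559 TPM (4.30, SE 0.66), and the elastic fiber genes Eln (3.75), Mfap2 (2.92), Fbn2 (2.14) and Mfap5 (0.90), together with Thbs3 (0.88). The falls were led by 2 other CCN family genes that answer to mechanical load and serum. Ctgf fell from 561, 269 and 152 TPM to 92.7, 28.8 and 31.9 TPM (log2 change -2.75, SE 0.69, adjusted P = 0.0376) and Cyr61 from 642, 378 and 250 TPM to 200, 95 and 98.8 TPM (-1.71, SE 0.45). Thbs1, Fbln2, Wisp1 and Ltbp1 fell with log2 changes between -0.94 and -0.78. Within the CCN family, then, Nov was lowest on day 2, when Ctgf and Cyr61 were highest.

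Enzymes that fold, cut and crosslink collagen did not move as a body. In this list 5 of 25 rose and 4 fell, against 11.8% and 9.14% of all genes tested, with a median of 0.12. The enhancer of procollagen cleavage Pcolce rose from 288, 425 and 580 TPM to 690, 970 and 1331 TPM (log2 change 1.21, SE 0.29), whereas its relative Pcolce2 fell from 12.4, 9.16 and 4.67 TPM to 1.23, 0.82 and 1.54 TPM (-3.0, SE 0.58). Adamts2, which removes the N-terminal propeptide, rose (log2 change 2.24), as did Crtap, P4ha3 and Plod1. The lysyl oxidases Loxl2 (-1.36) and Loxl4 (-1.59) and the lysyl hydroxylase Plod3 (-0.58) fell, and Lox itself, at 536 to 960 TPM, had a log2 change of -0.58 that was not called (adjusted P = 0.0737). The collagen chaperone Serpinh1 stayed between 429 and 516 TPM over the 6 days (log2 change 0.05, SE 0.12).

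Among matrix proteases and their inhibitors 5 of 20 rose and 3 fell, against 11.8% and 9.14% of all genes tested. The membrane protease Mmp14 rose from 165, 186 and 232 TPM to 299, 373 and 438 TPM (log2 change 0.91, SE 0.16), and Mmp16, Adamts1, Htra1 and Mmp11 rose with log2 changes from 0.74 to 1.48, the last 2 with day 8 inside the early range. Among the 3 that fell were the urokinase gene Plau (-1.19) and Timp1, the inhibitor of metalloproteinases, which dropped from 1613, 1512 and 1183 TPM to 559, 314 and 342 TPM (-1.84, SE 0.26, adjusted P = 0.0281). Timp2 and Timp3 had log2 changes of 0.16 and 0.03 and were not called.

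**Figure D2:**
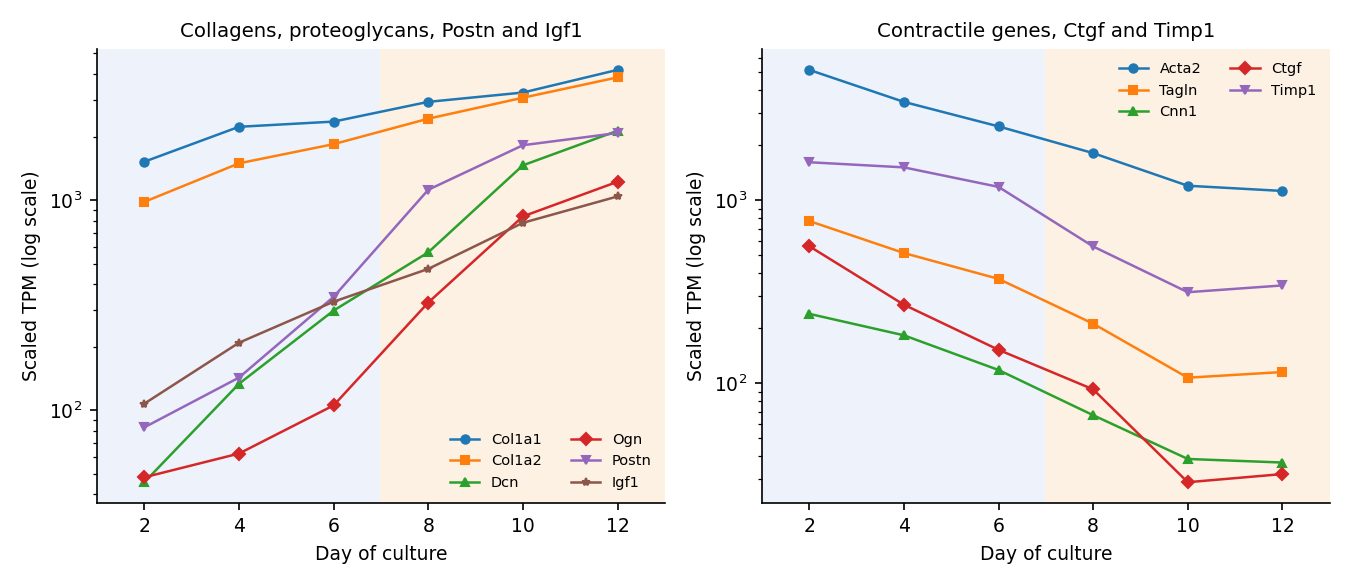
Scaled TPM on a log axis against day of culture for 6 genes of matrix and growth (left) and 5 genes that were highest on day 2 (right), 1 point for each summed day, with the early window shaded blue and the middle window orange. Between days 2 and 12 Dcn climbs from 45.5 to 2142 TPM while Acta2 drops from 5155 to 1124 TPM.

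The contractile list had the lowest median of the lists, -0.85, and 16 of its 27 members fell while 2 rose, against 9.14% and 11.8% of all genes. Acta2, smooth muscle actin, fell from 5155, 3446 and 2532 TPM to 1809, 1200 and 1124 TPM (log2 change -1.45, SE 0.34, adjusted P = 0.0329). Tagln (transgelin) fell from 770, 515 and 372 TPM to 212, 107 and 115 TPM (-1.95, SE 0.38), and Cnn1 (calponin) from 240, 183 and 118 TPM to 66.9, 38.6 and 36.9 TPM (-1.94, SE 0.35). For these 3 genes each early day was above each middle day, and the level on day 2 was the highest of the 6 days. The gamma smooth muscle actin Actg2 (-1.90), the smooth muscle myosin Myh11 (-2.22), the tropomyosins Tpm2 (-1.23) and Tpm4 (-1.07), the actin crosslinker Actn1 (-1.12), the fibronectin receptor subunit Itga5 (-1.26) and the transcription factor Srf (-0.81) fell too. The members that rose were Mylk, myosin light chain kinase, from 10.8, 11.4 and 15.1 TPM to 26.3, 60.2 and 68.9 TPM (2.18, SE 0.35), and Itga1 (1.22), a collagen receptor subunit. Tpm1, the most abundant tropomyosin, was 4349 TPM at day 2, 2170 TPM at day 8 and 3187 TPM at day 12 (-0.32, SE 0.26) and was not called. Desmin (Des), which also marks muscle cells, fell by 1.16 on the log2 scale and was at 5.79 TPM or below on all 6 days.

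Wnt signaling controls osteoblast formation, and the genes of it that rose in the middle days were for the most part secreted antagonists, R-spondin ligands and receptors. In the Wnt list 11 of 28 members rose and 1 fell (Nkd2, an intracellular inhibitor, log2 change -1.11). Sfrp1 rose from 25.9, 52.4 and 106 TPM to 231, 656 and 944 TPM (3.30, SE 0.65, adjusted P = 0.0288). Rspo3, a ligand that raises Wnt receptor levels, rose from 8.09, 12.6 and 24.5 TPM to 78.2, 184 and 273 TPM (3.55, SE 0.55), and Rspo2 (3.06) and Rspo1 (2.94) rose from lower levels. Lgr5, a receptor for R-spondins, rose from 0.65, 1.84 and 5.58 TPM to 20.7, 56.4 and 97.0 TPM (4.47, SE 0.89), whereas its relative Lgr4 stayed between 8.16 and 12.4 TPM (0.19, SE 0.16) and Lgr6, at 4.90 TPM on day 2, was at 0.19 to 0.23 TPM in the middle days without being called (adjusted P = 0.0602). The coreceptors Lrp6 (1.21) and Lrp5 (0.73) rose. The secreted antagonists Dkk3 and Dkk2 were not called, with log2 changes of 0.66 and 0.10 (adjusted P = 0.210 and 0.860). Nkd1, an intracellular inhibitor that the pathway itself induces, rose from 0.79, 0.50 and 0.51 TPM to 2.30, 8.00 and 9.22 TPM (3.41, SE 0.53, adjusted P = 0.0281). Axin2, another target of the pathway, was at 2.75 to 4.21 TPM over the 6 days (log2 change 0.20, SE 0.19, adjusted P = 0.444). Wnt16 is among the 11 by its counts, but its length-corrected level overlapped between windows, at 0.38 to 18.6 TPM early and 1.88 to 17.6 TPM in the middle days.

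Growth factor genes showed their clearest rises in the IGF axis, where 10 of 22 members rose and 2 fell. Igf1 rose from 108, 210 and 329 TPM to 472, 781 and 1043 TPM (log2 change 2.16, SE 0.43, adjusted P = 0.0290), and the gene of its receptor, Igf1r, fell from 33.5, 33.6 and 28.2 TPM to 20.2, 14.5 and 16.4 TPM (-0.91, SE 0.16). Igf2 dipped to 705 TPM on day 6 and reached 3342 TPM on day 12 with overlapping windows (1.26, SE 0.43, adjusted P = 0.0731). The binding protein genes Igfbp3, Igfbp4 and Igfbp5 rose, Igfbp5 from 18.6, 33.5 and 44.0 TPM to 130, 438 and 592 TPM (3.57, SE 0.57), while Igfbp7 fell (-0.49). The imprinted genes Mest (2.39), Dlk1 (2.54), Plagl1 (1.54), Zim1 (1.97), H19 (1.15) and Sgce (0.81) rose as well, and Grb10, Cd81, Igf2r and Ndn were not called, with log2 changes between -0.23 and 0.19. The windows of Dlk1 overlapped, at 35.37, 18.44 and 16.08 TPM early and 33.65, 128.9 and 250.2 TPM in the middle days.

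In the BMP and TGF-beta list 8 of 32 members rose and 3 fell, against 11.8% and 9.14% of all genes tested. Bmp4, a bone morphogenetic protein, rose from 19.1, 24.3 and 30.1 TPM to 48.9, 101 and 149 TPM (log2 change 2.02, SE 0.36), and the antagonist Chrdl1 rose further, from 1.23, 1.97 and 7.66 TPM to 32.0, 116 and 188 TPM (4.96, SE 0.89). Gdf10, Bmp3, Bmp2, Bmp5, Fst and the receptor gene Tgfbr1 also rose. Inhba, the activin A subunit, fell from 1211, 801 and 373 TPM to 236, 163 and 206 TPM (-2.01, SE 0.42). Its antagonist Fstl3 fell by 1.43 and the coreceptor Eng by 0.68 on the log2 scale. Id1, Id3 and Smad6, which respond directly to BMP signaling, were highest on day 2 and were not called (log2 changes 0.11, 0.10 and -0.38). Of the 18 FGF and hedgehog genes tested 4 rose and 0 fell, and those that rose were Fgfr2, from 81.5, 64.4 and 76.3 TPM to 91.8, 181 and 193 TPM (1.09, SE 0.27), Smo, Gli2 and Gli3. Over these 18, DESeq2 called 5 higher and 2 lower, and limma 0 and 1.

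**Figure D3:**
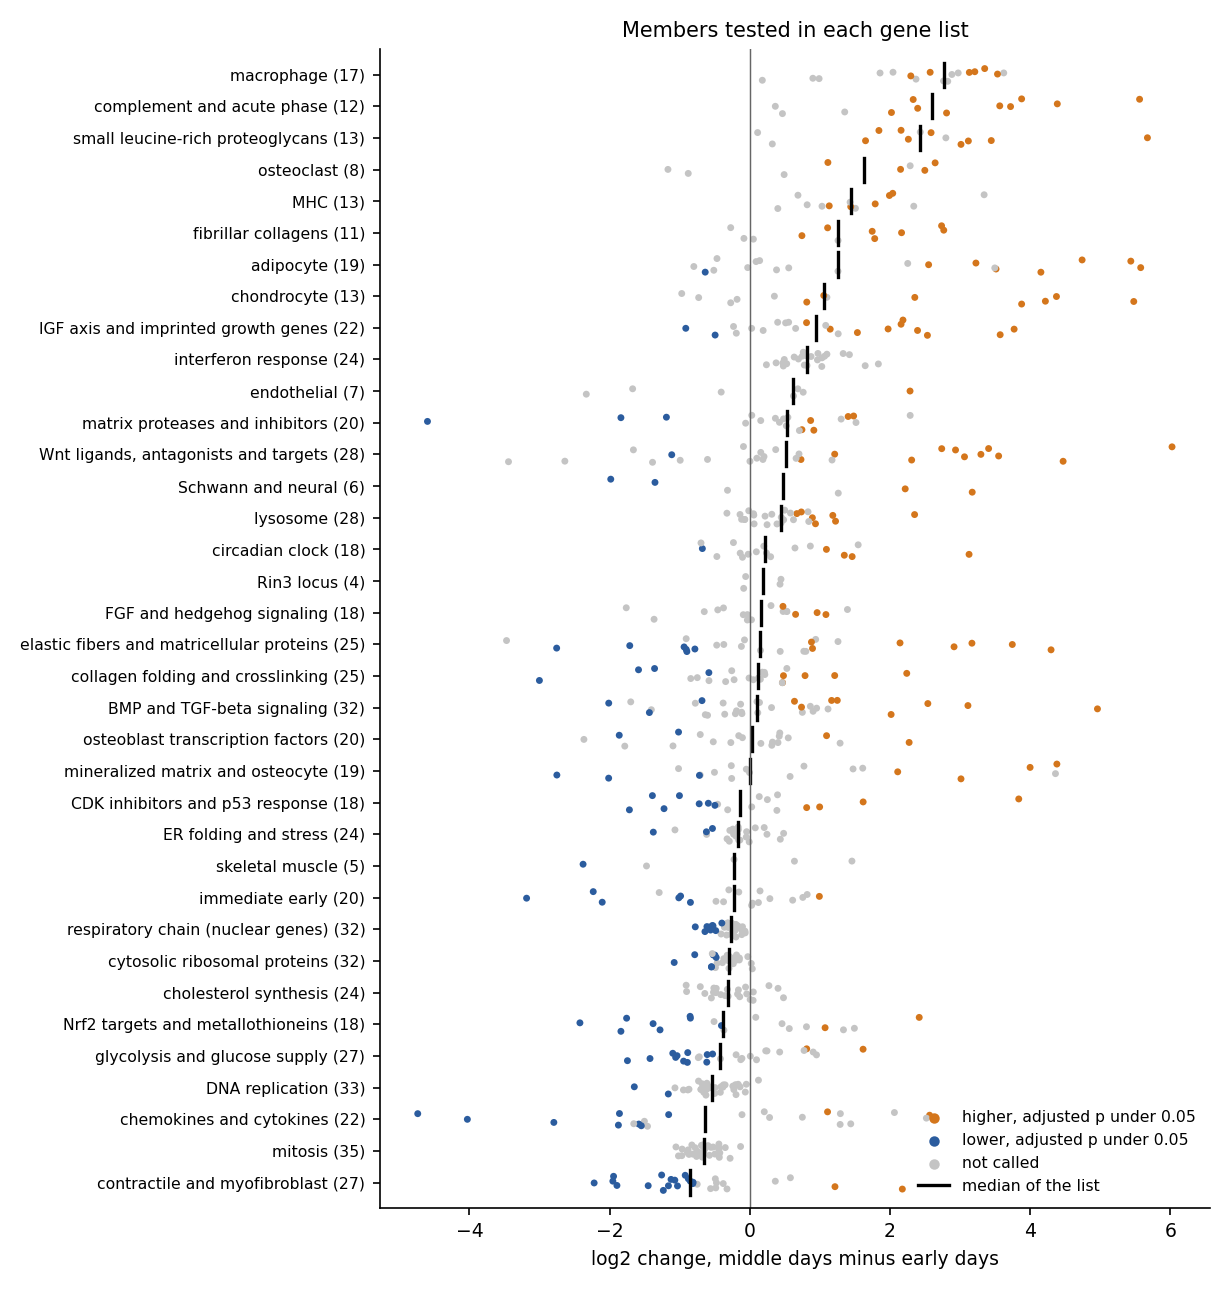
Log2 change, middle minus early days, of every member tested in each gene list with at least 4 tested members (their number in parentheses), 1 point for a gene, coloured by call, with a black bar at the median. Medians run from -0.85 for the contractile list to 2.77 for the macrophage list.

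Cell division genes were near their early level on day 8 and lower on days 10 and 12, and the comparison of windows called few of them. All 35 mitosis genes had a log2 change below 0, with a median of -0.66, but 0 were called by edgeR. At unadjusted P under 0.05 there were 3, DESeq2 called 3 lower and limma 0. Mki67, the standard marker of cycling cells, was 42.7, 41.4 and 57.4 TPM in the early days, 55.0 TPM on day 8, 29.3 TPM on day 10 and 19.4 TPM on day 12 (log2 change -0.44, SE 0.38, adjusted P = 0.404). On day 10, 34 of the 35 were lower than on day 8, and 33 were lowest on day 12. Cdk1 went from 70.9, 75.9 and 80.5 TPM to 66.9, 35.0 and 21.7 TPM (-0.81, SE 0.39) and Ccnb1 from 82.2, 67.8 and 81.9 TPM to 64.2, 32.2 and 19.1 TPM (-0.96, SE 0.43). In the DNA replication list 2 of 33 fell, a share no higher than the 9.14% of all genes tested. Rrm2, the regulated subunit of ribonucleotide reductase, fell from 145, 87.8 and 83.7 TPM to 58.7, 23.3 and 21.4 TPM (-1.65, SE 0.45, adjusted P = 0.0439), and Orc1, of the origin recognition complex, fell from 6.50, 6.86 and 6.83 TPM to 5.42, 3.20 and 1.90 TPM (-1.16, SE 0.30). Pcna was 90.8 to 109 TPM in the early days, 113 TPM on day 8 and 64.0 TPM on day 12 (-0.23, SE 0.21). Because RNA was measured in bulk, fewer dividing cells and less of these RNAs per cell cannot be told apart.

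Many promoters of the mitosis genes hold 1 or both of 2 short motifs. Those of the 3 most abundant members with both motifs in the 250 bases before the start are shown. They are RefSeq sequences of GRCm38.p6, written 5′ to 3′ on the strand of the gene, with the CHR element (TTTGAA or its complement TTCAAA) and the CCAAT box (CCAAT or its complement ATTGG) in capitals. Ube2c (a ubiquitin-conjugating enzyme of mitotic exit), Top2a (topoisomerase II alpha) and Cdk1 (the mitotic kinase) were at 144, 69.5 and 70.9 TPM on day 2 and at 39.0, 26.2 and 21.7 TPM on day 12.
Ube2c, chr2:164769679-164769928, plus strand: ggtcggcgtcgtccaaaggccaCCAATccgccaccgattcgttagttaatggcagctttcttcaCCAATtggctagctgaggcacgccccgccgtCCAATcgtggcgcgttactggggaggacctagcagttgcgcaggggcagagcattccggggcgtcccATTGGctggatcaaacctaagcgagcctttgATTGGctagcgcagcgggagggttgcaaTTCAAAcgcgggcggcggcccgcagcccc
Top2a, chr11:99024190-99024439, minus strand: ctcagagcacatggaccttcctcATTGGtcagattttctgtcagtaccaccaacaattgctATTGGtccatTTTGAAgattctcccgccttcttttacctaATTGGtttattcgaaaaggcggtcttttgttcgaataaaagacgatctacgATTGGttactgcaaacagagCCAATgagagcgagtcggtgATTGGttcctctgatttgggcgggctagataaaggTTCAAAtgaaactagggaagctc
Cdk1, chr10:69352913-69353162, minus strand: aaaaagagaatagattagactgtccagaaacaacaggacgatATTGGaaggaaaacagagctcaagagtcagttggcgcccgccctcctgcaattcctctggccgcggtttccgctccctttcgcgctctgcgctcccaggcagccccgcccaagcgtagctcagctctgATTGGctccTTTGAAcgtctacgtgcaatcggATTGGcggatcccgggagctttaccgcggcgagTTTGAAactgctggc
The CHR element, searched on both strands, was present in 23 of the 31 windows of 300 bases that matched 29 of the 35 mitosis genes (74.2%), and in 17.9% of all 32851 windows. The CCAAT box was present in 80.6% of the mitosis windows and in 37.4% of all. In 33 windows of 27 of the 33 DNA replication genes the CHR element was found in 12.1%, the CCAAT box in 57.6% and an E2F site (TTTGGCGC or TTTCGCGC or TTTCCCGC) in 39.4%, compared with 1.84% of all windows for the last. In the windows of the genes tested here, of which 74.5% had one, the shares were 12.3% for the CHR element, 37.7% for the CCAAT box and 3.29% for the E2F site. The promoter of Orc1, the gene of this list with such a site among the 2 that fell, is shown with that site, here on the opposite strand, and the CCAAT boxes in capitals.
Orc1, chr4:108579204-108579453, plus strand: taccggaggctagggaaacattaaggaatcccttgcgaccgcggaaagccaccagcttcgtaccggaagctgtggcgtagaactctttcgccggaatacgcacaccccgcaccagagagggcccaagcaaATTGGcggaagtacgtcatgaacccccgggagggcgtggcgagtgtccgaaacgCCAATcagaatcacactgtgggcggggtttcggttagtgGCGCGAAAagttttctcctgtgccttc
These matches describe the letters in the windows, and none of the 3 motifs contains another. Windows were found for 74.1% of the genes called higher and 78.3% of those called lower, too few for a check over those sets, where the CHR element was in 11.4% and 11% of windows, the CCAAT box in 37.4% and 34.4% and the E2F site in 1.46% and 3.34%.

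**Figure D4:**
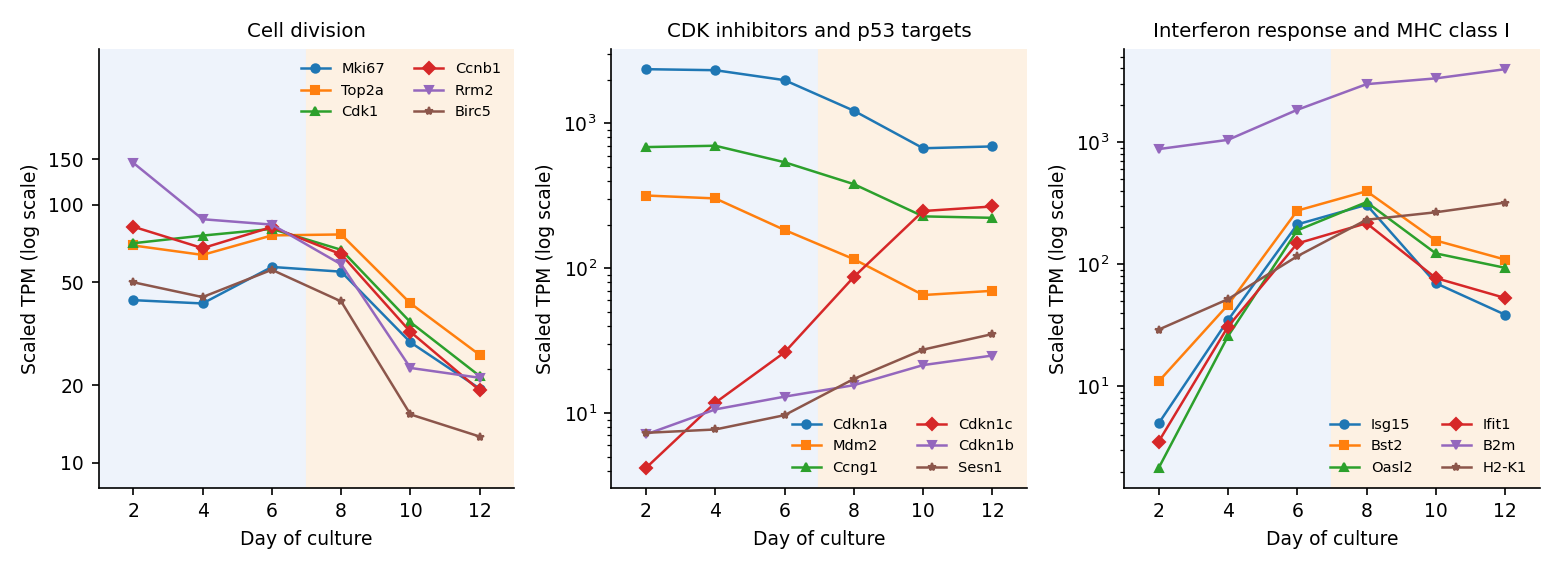
Scaled TPM on a log axis against day of culture for cell division genes (left), CDK inhibitors and p53 targets (middle) and interferon-response and MHC class I genes (right), 1 point for each summed day, early window blue and middle window orange. Apart from Rrm2, which is highest on day 2, the division genes are near their early level on day 8 and lower by day 12 (Mki67 55.0 and 19.4 TPM), Cdkn1a falls while Cdkn1c rises, and Isg15 peaks at 306 TPM on day 8.

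Inhibitors of the cell cycle moved in opposite directions. Cdkn1a (p21), a target of p53, fell from 2368, 2330 and 1989 TPM to 1223, 673 and 693 TPM (log2 change -1.39, SE 0.27, adjusted P = 0.0287). Cdkn1c (p57), an imprinted inhibitor, rose from 4.17, 11.8 and 26.2 TPM to 87.0, 248 and 267 TPM, a middle mean 14.3 times the early one (3.84, SE 0.71). Cdkn1b (p27) rose from 7.11, 10.6 and 13 TPM to 15.6, 21.4 and 24.9 TPM (1.00, SE 0.23). Other targets of p53 fell with Cdkn1a. They were Mdm2, its ubiquitin ligase, from 318, 303 and 184 TPM to 115, 65.2 and 69.8 TPM (-1.72, SE 0.34), Ccng1 (-1.22), Bax (-1.0), Btg2 (-0.72), Phlda3 (-0.59) and Zmat3 (-0.50). Sesn1 and Gadd45a, which p53 can also induce, rose by 1.62 and 0.81 on the log2 scale. In all, 4 of the 18 genes of this list rose and 7 fell.

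Many genes of energy supply fell. In the glycolysis list 11 of 27 fell and 2 rose (Pdk1 and Ldhb). Gapdh fell from 2640, 2167 and 1944 TPM to 1436, 921 and 871 TPM (log2 change -1.04, SE 0.24, adjusted P = 0.0328), and Pkm2, pyruvate kinase, from 564, 496 and 414 TPM to 259, 146 and 150 TPM (-1.42, SE 0.27). The glucose transporter Slc2a1 (-1.10), hexokinase Hk2 (-1.75), Pgk1 (-1.06), Eno1 (-0.94), Pgam1 (-0.88), Tpi1, Aldoa and Gpi1 fell, and so did Vegfa (-0.89). Ldha, from 1020 to 462 TPM, was not called (-0.72, adjusted P = 0.0575). Nuclear genes of the respiratory chain had smaller changes in 1 direction, with 9 of 32 lower, 0 higher and all 32 log2 changes below 0 (median -0.26). Cycs, cytochrome c, had the largest of these falls, by 0.78 on the log2 scale, and Atp5b, of the ATP synthase, the highest level, from 6387, 5582 and 5260 TPM to 4176, 3605 and 4021 TPM (-0.56, SE 0.14). Of 32 cytosolic ribosomal protein genes 7 fell and 0 rose (median -0.29), Rps27l, a p53-inducible relative of a ribosomal protein, by 1.08 and Rps2 by 0.78 on the log2 scale.

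Genes of antioxidant defence that NRF2 induces fell in 8 of 18 cases and rose in 2. Hmox1, heme oxygenase, fell from 526, 448 and 306 TPM to 146, 108 and 130 TPM (log2 change -1.76, SE 0.23, adjusted P = 0.0281), and Nqo1 from 62.6, 60.8 and 58.0 TPM to 26.3, 12.2 and 12.6 TPM (-1.84, SE 0.32). Slc7a11 (-2.42), Txnrd1 (-1.38), Srxn1 (-1.28), Gclm, Gclc and Sod2 fell too, and their middle days were all below their early days. The 2 that rose were Gpx3, a secreted glutathione peroxidase, from 45.3, 94.5 and 119 TPM to 164, 453 and 787 TPM (2.42, SE 0.56), and the metallothionein Mt1 (1.07). In the secretory pathway 3 of 24 folding and stress genes fell, near the 9.14% of all genes, the amino acid enzyme Asns (-1.38), Hyou1 (-0.62) and Canx (-0.53), and 0 rose. Hspa5, the main chaperone of the endoplasmic reticulum, stayed between 681 and 881 TPM (-0.18, SE 0.12). Of 24 cholesterol synthesis genes edgeR and limma called 0. DESeq2 called 2 lower, 3 had unadjusted P under 0.05, and all 24 were lower on day 10 than on day 8.

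Several early-response and inflammatory genes fell. In the immediate early list 6 of 20 fell and 1 rose (Egr3). Fosl1 fell from 55.6, 33.3 and 26.0 TPM to 9.84, 1.17 and 1.79 TPM (log2 change -3.18, SE 0.81), Dusp1 from 140, 73.5 and 38.8 TPM to 23.1, 15.3 and 21.9 TPM (-2.10, SE 0.48), and Ier3, Jun, Fosl2 and Myc fell by 0.85 to 2.23 on the log2 scale. Fos and Egr1 had log2 changes of 0.04 and 0.29 and were not called. Among chemokines and cytokines 8 of 22 fell and 2 rose. Csf1, the growth factor of macrophages, fell from 848, 550 and 375 TPM to 228, 184 and 196 TPM (-1.58, SE 0.32), and the monocyte chemokines Ccl2 and Ccl7 fell from 77.1 and 130 TPM on day 2 to 16.6 and 21.3 TPM on day 12 (-1.55 and -1.86). Cxcl1, Cxcl5, Cxcl14, Ptgs2 and Ppbp also fell. Cxcl12, the chemokine that retains blood stem cells in marrow, rose from 23.6, 51.8 and 97.8 TPM to 172, 388 and 554 TPM (2.57, SE 0.57), and Cx3cl1 rose by 1.11.

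Genes of the interferon response were highest near day 8, in the middle of the 6 days, and the comparison of windows called none. All 24 had log2 changes above 0 (median 0.81), but edgeR and limma called 0, DESeq2 called 1 and 1 had an unadjusted P under 0.05. Of the 24, 23 were lowest on day 2 and 22 were highest on day 8. Isg15, a ubiquitin-like protein, was 4.97, 34.8 and 211 TPM on the early days and 306, 69.8 and 38.5 TPM on the middle days (log2 change 0.76, SE 1.24, adjusted P = 0.664). Oasl2 followed the same course, at 2.15, 25.7 and 189 TPM and then 322, 122 and 93.2 TPM. Genes of MHC class I, some of which interferon induces, were highest on day 12 for the 3 named here. B2m rose from 874, 1040 and 1833 TPM to 2972, 3314 and 3940 TPM (1.44, SE 0.26, adjusted P = 0.0281), and H2-K1 and H2-D1 rose by 2.04 and 1.79. These class I genes are close relatives, and reads may have been divided between them. In all 5 of the 13 genes tested in the MHC list rose and 0 fell. The 5 include Ciita, at 0.03 to 0.31 TPM over the 6 days and with overlapping windows.

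Complement and acute phase genes rose in 9 of 12 cases, with 0 lower and a median of 2.60. Serping1, the inhibitor of the C1 complex, was the most abundant, rising from 24.7, 35.0 and 60.5 TPM to 104, 292 and 478 TPM (log2 change 2.81, SE 0.55, adjusted P = 0.0288). Clusterin (Clu) rose from 1.96, 2.91 and 6.38 TPM to 15.9, 77.8 and 136 TPM (4.39, SE 0.80), Lbp, which binds lipopolysaccharide, from 2.24, 4.44 and 8.00 TPM to 22.7, 60.4 and 116 TPM (3.72, SE 0.71), and C3 by 5.56. C4b, Cfb, C1s and C1ra rose by 2.02 to 3.88.

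Few transcription factors of the osteoblast lineage were called, and the late genes of the mineralized matrix were low in both windows. Runx2 was 46.4, 42.0 and 45.2 TPM in the early days and 50.2, 52.8 and 65.7 TPM in the middle days (log2 change 0.32, SE 0.13, adjusted P = 0.106), without overlap between the windows. Sp7 was 32.3 TPM on day 2 and between 2.77 and 7.06 TPM from day 4 on (-1.78, SE 0.88, adjusted P = 0.174). Alpl was 9.13 TPM on day 2, 0.47 TPM on day 6, and was at 17.1 TPM on day 12, so that the windows overlapped (1.47, SE 1.22, adjusted P = 0.393). Day 2 was thus set apart from days 4 and 6 in both genes. Of the 20 transcription factors listed 2 rose, Mef2c from 2.64, 3.15 and 5.04 TPM to 10.7, 18.7 and 23.0 TPM (2.27, SE 0.33) and Snai2 (1.10), and 2 fell, among them Msx2 from 130, 102 and 94.4 TPM to 54.4, 19.5 and 16.3 TPM (-1.86, SE 0.48). These counts are close to the shares of all genes tested, 11.8% higher and 9.14% lower.

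Among 19 tested genes of mineralized matrix and osteocytes 4 rose and 3 fell, against 11.8% and 9.14% of all genes tested. Phex, an osteocyte peptidase that acts on phosphate balance, rose from 0.34, 0.48 and 0.68 TPM to 1.64, 6.59 and 13.8 TPM (log2 change 4.38, SE 0.82), Omd by 3.01, and Dmp1 by 4.00, the last to no more than 1.55 TPM. Bglap2, an osteocalcin gene, rose from 0.80, 1.76 and 2.07 TPM to 3.54, 5.11 and 11.9 TPM (2.11, SE 0.61, adjusted P = 0.0498), and its near-identical relatives may have shared its reads. Ibsp was under 1 TPM until day 10 and 17.1 TPM on day 12 (4.36, SE 1.40, adjusted P = 0.0642). Mepe had no count on any of the 6 days, and Sost had at most 0.03 TPM. Sparc, osteonectin, was the most abundant gene of the list at 8026 to 11450 TPM early and 11450 to 19520 TPM in the middle days (0.58, SE 0.22, adjusted P = 0.0957). The genes that fell were Slc20a1, a phosphate transporter, from 135, 117 and 67.0 TPM to 29.2, 12.0 and 7.83 TPM (-2.75, SE 0.60), Tnfrsf11b, which encodes osteoprotegerin, the decoy receptor of RANKL, from 55.2, 30.3 and 16.4 TPM to 10.8, 7.47 and 7.57 TPM (-2.01, SE 0.45), and Pdpn (-0.72). Set against the label of osteoblast, type I collagen and Runx2 were present on all 6 days, while the late markers Ibsp, Bglap2 and Dmp1 stood at 5.11 TPM or below until day 10.

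**Figure D5:**
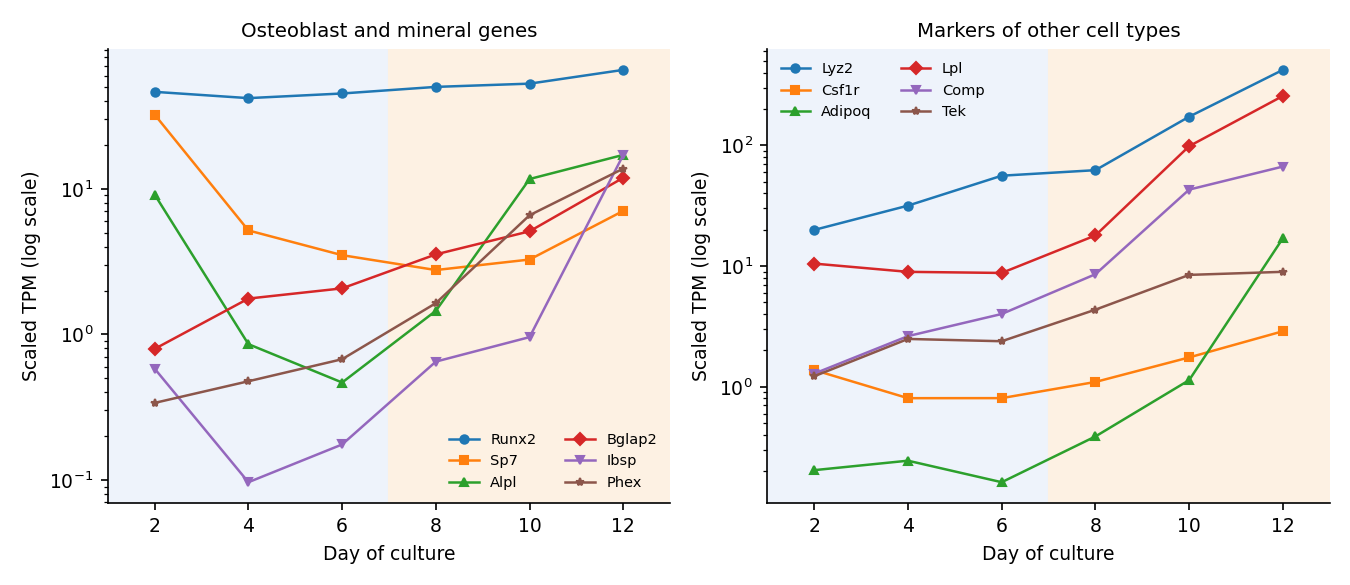
Scaled TPM on a log axis against day of culture for osteoblast and mineral genes (left) and markers of macrophages, adipocytes, cartilage and endothelium (right), 1 point for each summed day, early window blue and middle window orange. Sp7 and Alpl are higher on day 2 (32.3 and 9.13 TPM) than on day 6, and Lyz2 climbs from 19.9 to 421 TPM.

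Markers of several other cell types also moved between the windows, as did many matrix and complement genes, while few osteoblast transcription factors were called. The macrophage list rose in 6 of 17 members tested and fell in 0, with a median of 2.77, and its 22 genes summed to 29.2 to 76.1 TPM in the early days and 81.5 to 567 TPM in the middle days. Most of this was Lyz2 (lysozyme), from 19.9, 31.6 and 56.0 TPM to 62.2, 172 and 421 TPM (log2 change 2.57, SE 0.67). Over the 17, DESeq2 called 14 higher and limma 0. The receptor gene Csf1r, which defines the lineage, was 1.38, 0.80 and 0.81 TPM and then 1.10, 1.75 and 2.88 TPM and was not called (0.90, SE 0.46, adjusted P = 0.182), and Ptprc stayed below 0.46 TPM. Among osteoclast genes 4 of 8 rose, Ctsk from 36.5, 61.8 and 83.7 TPM to 93.2, 135 and 168 TPM (1.11, SE 0.30), Acp5 (2.50), Atp6v0d2 and Ocstamp, of which the last 2 stayed below 4 TPM. Adipocyte genes rose in 7 of 19 cases and fell in 1 (Plin2). Adipoq was under 0.25 TPM in the early days and 0.39, 1.14 and 17.0 TPM in the middle days (5.58, SE 1.51, adjusted P = 0.0434), and Lpl rose from 10.5, 8.95 and 8.76 TPM to 17.9, 98.2 and 256 TPM (3.51, SE 0.76). The sum over the adipocyte list was 277 to 332 TPM early and 313, 344 and 737 TPM on days 8, 10 and 12. Over the 19 adipocyte genes tested, DESeq2 called 9 higher and 2 lower, and limma 1 and 0.

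Cartilage genes rose in 7 of 13 cases and fell in 0, with Comp going from 1.28, 2.63 and 4.01 TPM to 8.55, 42.9 and 66.6 TPM (log2 change 3.88, SE 0.76) and Sox9 from 16.8, 29.4 and 34.3 TPM to 47.0, 56.9 and 63.6 TPM (1.06, SE 0.24). The cartilage genes Col2a1 and Acan were not called, since Col2a1 was 111, 82.7 and 71.2 TPM and then 87.5, 69.5 and 62.6 TPM (-0.27, SE 0.23) and Acan stayed at 1.15 TPM or below. Of 12 endothelial genes 7 were tested and Tek alone rose, from 1.22, 2.49 and 2.38 TPM to 4.35, 8.44 and 8.95 TPM (2.29, SE 0.40). In the Schwann and neural list Ngfr and S100b rose and Ncam1 and Tubb3 fell. The skeletal muscle list summed to 3.97 to 16.0 TPM, the mast cell list to at most 1.06 TPM and the erythroid list to at most 1.30 TPM on any of the 6 days, and Acta1 (-2.38) was the only called member of these 3 lists. What part such cells had in the changes of the osteoblast, matrix and complement genes was not tested.

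Lysosomal genes rose in 7 of 28 cases and fell in 0 (median 0.45), against 11.8% and 9.14% of all genes tested. Among those that rose were Lamp2, from 184, 255 and 271 TPM to 310, 378 and 448 TPM (log2 change 0.67, SE 0.16), Gaa (1.19) and Hexa (0.89). Ctss, which macrophages express strongly, rose most (2.35). Of 18 circadian clock genes 4 rose, Hlf (3.13), Bhlhe41 (1.46), Per3 (1.35) and Tef (1.09), and Bhlhe40 fell (-0.68), while the core genes Clock, Arntl, Cry1 and Per2 had log2 changes between -0.23 and -0.02 and were not called. The hour of harvest is not given in the sources used here. The Rin3 locus, which the study examined because it lies near a bone density signal, had 4 genes tested and 0 called by edgeR, DESeq2 or limma, with 0 at unadjusted P under 0.05. Rin3 itself, a guanine nucleotide exchange factor of endocytosis, was 18.5, 19.7 and 13.2 TPM in the early days and 16.8, 15.0 and 27.3 TPM in the middle days (-0.09, SE 0.19, adjusted P = 0.747), and its neighbour Lgmn, a lysosomal protease, was 19.4 to 35.3 TPM and 29.4 to 46.2 TPM (0.45, SE 0.20, adjusted P = 0.140). For Rin3 the middle mean in TPM was 1.15 times the early mean, whereas its log2 change of the counts was below 0.

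From the middle to the late days the log2 change had the same sign as before in 81.1% of the genes called higher and in 82.4% of those called lower, compared with 66.5% of all genes tested, though both steps share the middle days. The further change was small, with medians of 0.28 and -0.20 on the log2 scale. Mean late levels were 4572 TPM for Sfrp2, 2476 TPM for Dcn and 904 TPM for Acta2. Late means further above day 12 were those of Bglap2, with a late mean of 156 TPM, Ibsp, with 51.8 TPM, and Lyz2, with 1051 TPM. A direct test of whether the step from early to middle differed from the step from middle to late called 0 of 15659 genes by edgeR with upper-quartile or TMM factors, with 2070 (13.2%) at unadjusted P under 0.05 and a lowest adjusted P of 0.208. That count changed to 239 without day 6 and to 776 without day 8.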

How the data were processed

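RNA of each day was amplified (NuGEN Ovation) and sequenced on an Illumina HiSeq 2000. The authors aligned reads with Bowtie 0.12.9 to the NCBIM37 transcriptome and ran RSEM, given as version 1.2.8 in the submitters' processing notes. They deposited, for each lane, expected counts (estimated reads per gene, which need not be whole) and the TPM and FPKM values that RSEM derives from them. The deposited FPKM values were not used. Here the expected counts of the 3 lanes of a day were summed and rounded. Deposited TPM were divided by the 75th percentile of the values above 0 in each profile, multiplied by the mean of these percentiles and averaged over lanes.

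Counts were tested with edgeR 4.0.16 (R 4.3.3; quasi-likelihood, filterByExpr at a minimum count of 10, scaling by the upper quartile, Benjamini-Hochberg adjustment, threshold 0.05) on 3 early against 3 middle days. A contrast of the 2 steps used all 9 days. DESeq2 1.42.0 and limma 3.58.1 on log2(TPM + 1) were alternatives, besides TMM factors, library totals, other filters, a straight line in day and leaving out each day. Genes were named where they had the 10 largest rises and falls (called, mean of at least 10 TPM, no overlap), were among 14 marker genes, or were the called members of a list by level or by change, up to 4 each way, or its 3 most abundant members. Other list members were named after their values were seen. The gene lists and the comparison were chosen with earlier results of these data known, so no count is adjusted over a list. Symbols were found for 37205 of 37991 genes, and 24 of 25 cholesterol genes were found for testing. Promoter windows (250 bases before to 50 after the start) came from RefSeq, on a build other than that of the files, and serve for sequence only. P-values set the difference between windows against the spread among the days within a window. That spread includes change with time and may be technical in part. Lane profiles were not treated as replicates in the main test. Values of some genes counted in the lists are not reported here.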

Additional observations from a re-analysis of the deposited data

How the results depend on the processing

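With 1 library a day and 3 days a window, the spread used by the tests includes change with time, and depth differed from 22470195 counts on day 10 to 62009157 on day 12, so genes of a few counts are least certain. Against 1748 genes higher and 1358 lower, DESeq2 gave 2381 and 2175, limma on log2(TPM + 1) 980 and 1078, the fit of all 9 days in 3 windows 2713 and 2135, and a straight line in day 3492 and 3147. Leaving out 1 day or 1 lane number moved the counts between 0 and 2740 higher and between 0 and 2458 lower. The value 0 arose without day 2, 4, 10 or 12, and the highest without day 8. TMM factors gave 1648 and 1632, library totals 1369 and 1308, and the low-count filters 1604 to 1660 and 1289 to 1482. The contrast of the 2 steps called between 0 and 776 genes when 1 day was left out, with 239 without day 6 and 776 without day 8. Treating the 18 lane profiles as samples gave 4524 and 4371 calls without a replicate block and 4390 and 4224 with the replicate block on lane number, and the common dispersion was 0.0385 in place of 0.0689. Between days, the deviations of same-numbered lanes from their day means had a mean correlation of -0.00065 and a highest one of 0.051. Lanes of a day differed by little more than sampling noise, so these correlations cannot show whether a lane number marks a shared origin. Of 211 named genes that were called, 57 lost the call under at least 1 alternative that kept all 6 days. All 211 lost it under at least 1 that left out a day, which follows from the 0 calls without day 2, 4, 10 or 12. No named gene that was called changed the sign of its log2 change under the alternatives run, but the balance of the counts turned with limma, which had 47.6% of its calls higher, against 56.3% in the test reported. The cause of these differences was not tested. Each fit that left out a day also had fewer samples, and without day 6 the counts were 1833 higher and 1498 lower.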
